A study of Mus musculus with 4 samples.

Results

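The chemokine genes Ccl2, Ccl5, Ccl7, Cxcl1, Cxcl5, Cxcl10, Cxcl12, Cxcl16 and Cx3cl1 and the macrophage growth factor gene Csf1 were followed in tumours of a mouse osteosarcoma line with and without HIF-1alpha, the oxygen-regulated transcription factor. These 10 genes were chosen by name, with earlier results of these data known. They were found among 55487 genes of the deposited table, each on 1 row. AXT is a mouse osteosarcoma line derived from marrow stroma of Ink4a/Arf-deficient mice by c-MYC overexpression, a background that mock and knockout cells share. Cells in matrigel were injected into immunodeficient C57BL/6scid mice, and tumours were taken after 1 day for sequencing of poly(A) RNA. There was 1 mock library (genotype WT) and there were 3 knockout libraries (genotype HIF-1alpha KO), whose deposited columns are named c11, c15 and c22. The labels name the knockout lines HIF-1alphaKO AXT1-1, HIF-1alphaKO AXT1-2 and HIF-1alphaKO AXT2 and do not say which column is which line, whether a line is a clone, or whether tumours were pooled. Host cells of the injection site are part of each tumour, so a level belongs to tumour and host cells together.

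Chemokines are small secreted proteins that guide leukocytes along gradients by binding G protein-coupled receptors. Their classes are named for the spacing of the first cysteines: CC ligands such as Ccl2 and Ccl7 attract monocytes, CXC ligands such as Cxcl1 and Cxcl5 attract neutrophils, and Cxcl10 attracts activated T cells and natural killer cells. Csf1 is the growth and survival factor of macrophages and of osteoclast precursors. Osteoblast lineage and bone marrow stromal cells are known sources of Cxcl12 and Csf1, and inflammatory chemokine genes are known targets of NF-kB and interferon signalling.

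The promoters of 5 of the 10 genes were present in the RefSeq promoter table (GRCm38.p6): Csf1, Cxcl1, Cxcl10, Cxcl12 and Cx3cl1. The other members were Ccl2, Ccl5, Ccl7, Cxcl5 and Cxcl16. In the 250 bases before each start site, 6 motifs were searched on both strands. The NF-kB type reads GGG, any 2 bases and TTTCC, and a second NF-kB type reads GGG, any 2 bases and TTCCC. The interferon type reads GAAA, any 2 bases and GAAA. The others were the hypoxia-type cores ACGTG and GCGTG and the AP-1 type TGANTCA (N is any base). The promoters of Cxcl10 and Cxcl1 are shown because both transcripts were above mock in each knockout library, and that of Csf1 as the growth factor gene of the set. Capitals mark every match to a searched motif, and each sequence runs 5′ to 3′ on the strand of its gene, up to the base before the start site.
Cxcl10, chr5:92348890-92349139, minus strand: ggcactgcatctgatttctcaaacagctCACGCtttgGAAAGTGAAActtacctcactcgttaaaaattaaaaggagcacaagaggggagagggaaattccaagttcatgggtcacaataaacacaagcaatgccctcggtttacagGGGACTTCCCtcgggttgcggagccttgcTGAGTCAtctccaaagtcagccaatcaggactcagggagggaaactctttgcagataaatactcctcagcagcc
Cxcl1, chr5:90890995-90891244, plus strand: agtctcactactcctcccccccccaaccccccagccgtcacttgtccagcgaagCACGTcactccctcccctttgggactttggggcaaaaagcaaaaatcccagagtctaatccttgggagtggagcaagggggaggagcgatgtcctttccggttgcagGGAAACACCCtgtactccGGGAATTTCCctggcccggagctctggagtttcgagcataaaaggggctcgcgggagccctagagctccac
Csf1, chr3:107760470-107760719, minus strand: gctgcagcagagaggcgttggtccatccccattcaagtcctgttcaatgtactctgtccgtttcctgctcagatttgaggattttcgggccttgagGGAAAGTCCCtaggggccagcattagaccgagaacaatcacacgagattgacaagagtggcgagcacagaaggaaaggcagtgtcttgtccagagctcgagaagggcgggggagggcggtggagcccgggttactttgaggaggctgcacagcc

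Cxcl10 held an interferon-type match, GAAAGTGAAA, from -213 to -204 relative to the start site, and a match to the second NF-kB type, GGGACTTCCC, from -103 to -94. It also held an AP-1-type match from -74 to -68 and the core GCGTG on the opposite strand. Cxcl1 held NF-kB-type matches from -89 to -80, on the opposite strand, and from -71 to -62, and the core ACGTG on the opposite strand from -196 to -192. Csf1 held 1 NF-kB-type match, on the opposite strand from -154 to -145. None of the 6 motifs was found in the windows of Cxcl12 and Cx3cl1. The Cx3cl1 window, 94771930 to 94772179, runs past the start of the gene as counted, 94772009, so much of it lies inside that gene. Over 32851 promoters of the table, the NF-kB type was found in 1.41%, the second NF-kB type in 1.53% and the interferon type in 2.98%. ACGTG was found in 16.6%, GCGTG in 28.2% and TGANTCA in 6.75%. A match describes letters and shows no binding.

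Library totals ranged from 12383719 to 13193264 counts, and levels are given in CPM, the count scaled to the total of each library. The floor of 3 counts that a count of 0 allows was 0.242 CPM for mock, and floors and intervals cover counting error only. Hif1a itself was at 107 CPM (mock), 104 CPM (c11), 98.7 CPM (c15) and 22.3 CPM (c22), so only c22 was low, and a whole-gene count cannot tell an edited transcript from an intact one. Of 10 osteoblast lineage markers, chosen for the labelled tumour type, 6 (Runx2, Sp7, Ibsp, Bglap, Dmp1 and Msx2) were below mock in all 3 knockout libraries. Of all tested genes, 22.5% were. The marker Col1a1 was above mock in all 3, as were 21.0% of all tested genes. The median log2 fold change of the 10 markers was -0.81. Their summed level was 4116 CPM in mock and 3439.8 to 8656 CPM in the knockout libraries, while Bglap was at 0 in c11 and Msx2 at 0 in c15. The part of this difference in the levels of the 10 genes was not tested. Markers of T cells and B cells, which scid mice lack, summed to at most 0.323 CPM per list in any library. The mock library had no replicate, so the spread comes from the 3 knockout libraries, and p-values measure only the spread between these libraries, which may be technical.

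None of the 10 genes passed an adjusted p of 0.05 in edgeR's quasi-likelihood test, in a fit over all 15706 tested genes. In that fit 0.0% of all genes were called higher and 0.00637% lower, and DESeq2 called 0.306% of genes higher and 0.42% lower, again with 0 of the 10. At an unadjusted p under 0.05 edgeR had 0 of the 10 higher, against 1.12% of all genes, and 1 lower, Ccl2, against 2.56% of all genes (3.68% in either direction). Cxcl1, Cxcl5 and Cxcl10 were above mock in all 3 knockout libraries, as were 21.0% of all genes. Ccl2, Ccl7 and Cxcl16 were below mock in all 3, as were 22.5% of all genes. The other 4 genes, Ccl5, Cxcl12, Cx3cl1 and Csf1, had knockout libraries on both sides of mock. Knockout minus mock, the log2 fold change of the fit was positive for 7 genes and negative for 3, with a median of 1.27, against 0.05 for all tested genes. With genes kept at a mean of at least 1 CPM, which left out Ccl5, Cxcl5 and Cxcl16, the median of the members was 0.92. The set was chosen with earlier results of these data known, so its median is a description only. With Cxcl5, which had 0 counts in mock, set against the mock floor, the median was 1.24. Without c15, where Ccl5 and Cxcl5 were not tested, it was 0.72.

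**Figure D1:**
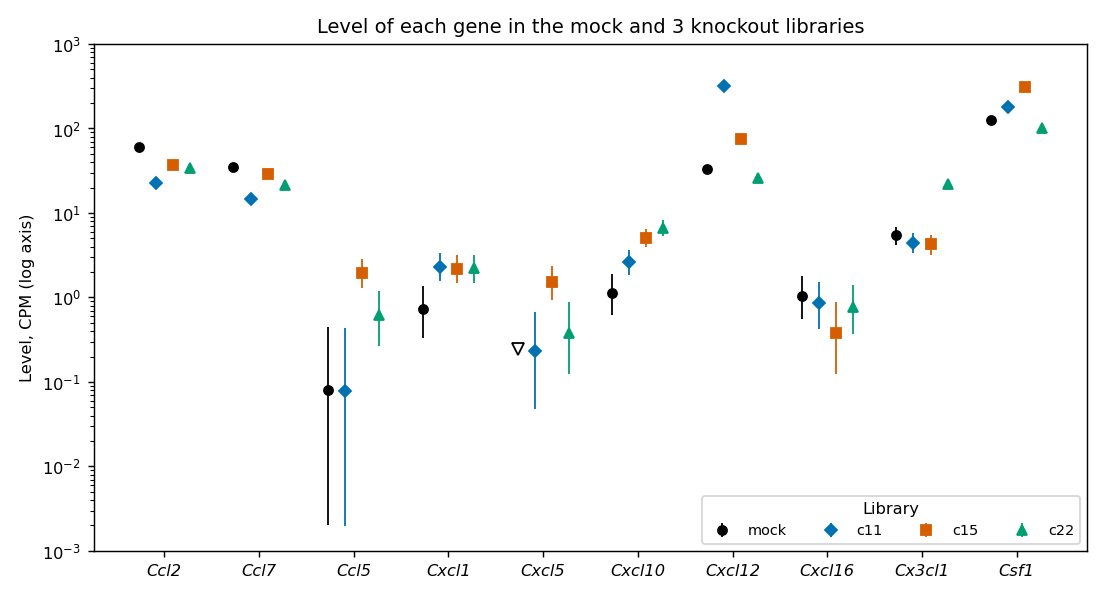
Level of each of the 10 genes in CPM (log axis) in the mock library and the knockout libraries c11, c15 and c22. Bars are exact 95% Poisson intervals of the counts and the open triangle marks the mock count of 0 for Cxcl5 at its floor of 0.242 CPM. Ccl2 and Ccl7 sit below mock in all 3 knockout libraries, Cxcl1 and Cxcl10 above it, and Cxcl12 spans from 25.8 to 320 CPM among the knockout libraries.

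The monocyte attractants Ccl2 and Ccl7 were lower in every knockout library than in mock. Ccl2 (ENSMUSG00000035385, chromosome 11, 82035571 to 82037453, GRCm38, plus strand), the main ligand of the receptor Ccr2, was at 61.0 CPM (mock), 22.8 CPM (c11), 36.6 CPM (c15) and 34.2 CPM (c22). The groups did not overlap, and c11 was lowest. The knockout mean was 31.2 ± 7.40 CPM (SD, n = 3), so the mock level was 1.96 times as high, with a log2 fold change of -0.96 (SE 0.39, edgeR adjusted p = 1.00). Ccl7 (chromosome 11, 82045712 to 82047525, plus strand), which also binds Ccr2, lies 8258 bases from Ccl2 with no protein-coding gene between them. It was at 35.4 CPM (mock), 14.6 CPM (c11), 29.3 CPM (c15) and 21.7 CPM (c22), in the same order of libraries as Ccl2, with c15 nearer to mock. The fit gave a log2 fold change of -0.69 (SE 0.47, edgeR adjusted p = 1.00).

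Counts of Ccl2 exceeded those of Ccl7 by a ratio of 1.73 in mock (exact 95% counting interval 1.53 to 1.95), 1.56 in c11 (1.30 to 1.89), 1.25 in c15 (1.09 to 1.43) and 1.58 in c22 (1.36 to 1.84). The interval of c15 did not reach that of mock, so the neighbours differed in proportion between those libraries by more than counting error. That comparison is of libraries and not of genotypes.

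The receptor Ccr2, a marker of inflammatory monocytes, was at 64.1 CPM (mock), 20.3 CPM (c11), 31.1 CPM (c15) and 28.1 CPM (c22) (log2 fold change -1.27, SE 0.37, edgeR adjusted p = 0.799). The order of the libraries was that of Ccl2, with mock highest and c11 lowest. Macrophage markers were lower in the same libraries. Against 22.5% of all tested genes, 9 of the 10 markers were below mock in all 3 knockout libraries, the exception being Cd68. Their summed level was 821 CPM in mock and 251 to 444 CPM in the knockout libraries, and their median log2 ratios to mock were -1.47 (c11), -0.73 (c15) and -0.54 (c22). The corresponding log2 ratios of Ccl2 were -1.40, -0.73 and -0.82, with 0.5 CPM added. All 6 skeletal muscle markers (summed 97.7 CPM in mock, 1.21 to 20.2 CPM in knockout) lay below mock in the 3 knockout libraries. So did all 5 erythroid markers (116 CPM, 1.63 to 41.1 CPM). Summed endothelial (4.28 CPM, 1.61 to 2.43 CPM) and host fibroblast markers (110 CPM, 25.6 to 97.9 CPM) were lower. Summed dendritic cell (16.9 CPM, 6.42 to 20.2 CPM) and keratinocyte markers (3.15 CPM, 3.06 to 3.79 CPM) had knockout libraries on both sides of mock. The part of macrophage and other host cell content in the levels of Ccl2 and Ccl7 was not tested, and fewer cells of a type and less RNA per cell cannot be told apart in these bulk samples.

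**Figure D2:**
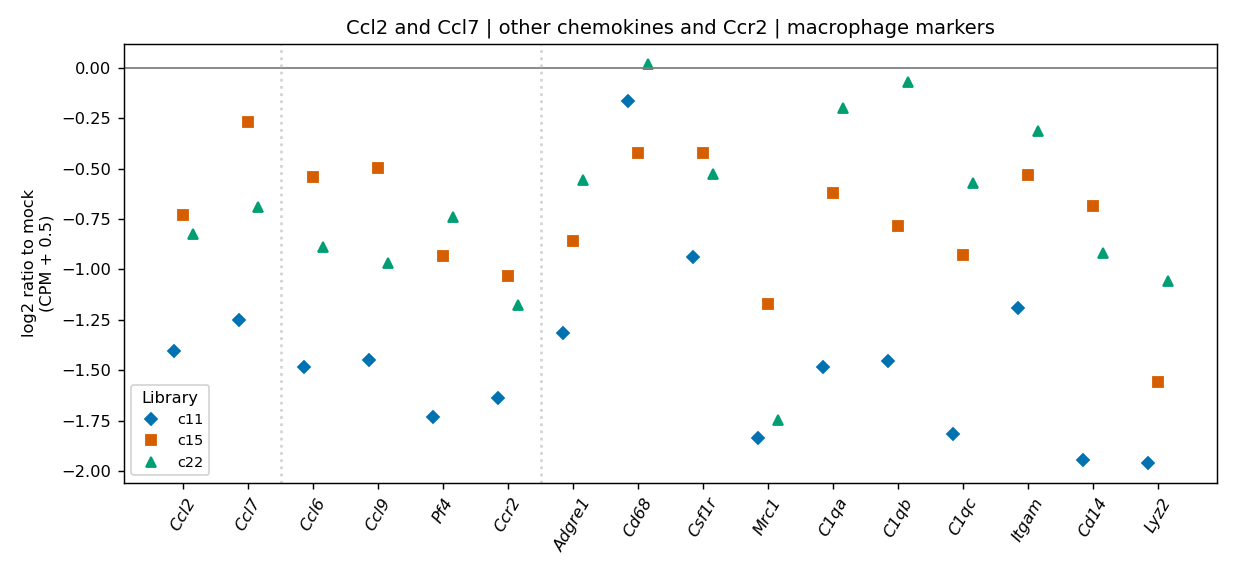
Log2 ratio of c11, c15 and c22 to mock (CPM with 0.5 added) for Ccl2 and Ccl7, for Ccl6, Ccl9, Pf4 and the receptor gene Ccr2, and for 10 macrophage markers. Nearly all points lie below 0, and c11 is lowest for each chemokine and receptor gene shown, with -1.40 for Ccl2 and -1.25 for Ccl7.

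Ccl5, which attracts T cells and monocytes, was near the limit of detection. Ccl5 (chromosome 11, 83525778 to 83530518, minus strand) had 1 (mock), 1 (c11), 26 (c15) and 8 (c22) counts, or 0.08, 0.08, 1.97 and 0.61 CPM. Only c15 and c22 lay above mock, and c11 equalled it in counts. The ratio of the summed knockout counts to mock was 11.1 (exact 95% counting interval 1.86 to 449). The fit gave a log2 fold change of 3.32 (SE 2.38, edgeR adjusted p = 1.00), and without c15 the gene did not pass the filter on low counts.

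Among the other chemokine ligands, 15 of 29 were tested, edgeR and DESeq2 called 0 in either direction, 1 (Ccl24, named after its values were seen) was lower at an unadjusted p under 0.05, 6 were below mock in all 3 knockout libraries and 0 were above it in all 3. Of all tested genes, 22.5% were below and 21.0% above mock in all 3 knockout libraries. Without c11 the median log2 fold change of the other CC ligands was 0.31, against -0.10 with all libraries. Highest in mean CPM were Ccl6 and Ccl9, chemokines of myeloid cells, and Pf4, which platelets and some macrophages make. Ccl6 was at 286 CPM (mock), 102 CPM (c11), 197 CPM (c15) and 154 CPM (c22) (log2 fold change -0.92, SE 0.41). Ccl9 was at 206 CPM (mock), 75.0 CPM (c11), 146 CPM (c15) and 105 CPM (c22), and Pf4 at 23.6 CPM against 6.74, 12.1 and 13.9 CPM. In all 3 genes mock was highest and c11 lowest, as for Ccl2 and for the summed macrophage markers. Ccl25 and Ccl11, the next in level, had knockout libraries on both sides of mock, and their fits gave 0.45 (SE 0.61) for Ccl25 and -0.38 (SE 0.75) for Ccl11 on the log2 scale.

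The neutrophil attractants Cxcl1 and Cxcl5 were scarce and were higher in the knockout libraries. Cxcl1 (ENSMUSG00000029380, chromosome 5, 90891241 to 90893115, plus strand), a ligand of Cxcr2, was at 0.73 CPM (mock), 2.32 CPM (c11), 2.20 CPM (c15) and 2.22 CPM (c22), from 9 counts in mock and 29 or 30 in each knockout library. The knockout libraries were nearly equal, at 2.25 ± 0.07 CPM (SD, n = 3), 3.09 times the mock level. Counting error was wider than this spread, with an interval of 1.57 to 3.32 CPM for c11, so the near equality shows no tight control. The exact 95% counting interval of the mock level was 0.33 to 1.38 CPM, below that of each knockout library, which started at 1.47 CPM or more. The fit gave a log2 fold change of 1.62 (SE 0.78, edgeR adjusted p = 1.00). Cxcl1 therefore differed from the mock library by more than counting error, but the test, which had no mock replicate, did not call it.

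Cxcl5 (chromosome 5, 90759360 to 90761624, plus strand), another Cxcr2 ligand, had 0 (mock), 3 (c11), 20 (c15) and 5 (c22) counts, or 0, 0.23, 1.52 and 0.38 CPM. The measured level was 6.26 times the 3-count floor of the mock library in c15 and 1.58 times in c22. The c11 level was at that floor, so it gives no fold. Only the counting interval of c15, 0.926 to 2.34 CPM, lay above that of mock, 0 to 0.298 CPM. Those of c11 and c22 overlapped it. The mean of the 3 libraries was 2.93 times the mock floor, and most of it came from c15. The ratio of the summed knockout counts to mock had an exact 95% lower limit of 2.24. Cxcr2 was at 0.24 CPM (mock), 0.31 CPM (c11), 1.06 CPM (c15) and 0.92 CPM (c22). Neutrophil markers summed to 10.4 CPM in mock and 4.72 to 17.3 CPM in the knockout libraries, with c11 below and c15 and c22 above mock, and the defining marker Ly6g was at 0 in every library. Single markers went both ways, with Retnlg below mock in all 3 knockout libraries and S100a9 above it in c15 and c22. The part of neutrophil content in the levels of Cxcl1 and Cxcl5 was not tested.

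Cxcl10, the interferon-induced ligand of Cxcr3, was higher in each knockout library. Cxcl10 (ENSMUSG00000034855, chromosome 5, 92346638 to 92348889, minus strand) was at 1.13 CPM (mock), 2.63 CPM (c11), 5.08 CPM (c15) and 6.65 CPM (c22). The groups did not overlap, but the counting interval of c11 (1.82 to 3.68 CPM) overlapped that of mock. The knockout libraries differed among themselves by up to 2.53 times. The mean of 4.79 ± 2.02 CPM (SD, n = 3) was 4.23 times the mock level, with a log2 fold change of 2.08 (SE 0.91, edgeR adjusted p = 1.00). Of its 2252 exonic bases, 133 are shared with exons of Art3 on the opposite strand, which was at 0.97 CPM (mock), 0.70 CPM (c11), 0.30 CPM (c15) and 3.06 CPM (c22). The strand setting of the counting is not given in the sources used here. The part of reads from Art3 in the level of Cxcl10 was not tested.

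Its receptor Cxcr3 was at 0.08 CPM in mock and 0.08 to 0.15 CPM in the knockout libraries, under the floor in all 4. Natural killer cell markers summed to 0.24 CPM in mock and 0.15 to 1.45 CPM in the knockout libraries. Of 15 tested genes of interferon sensing and signalling, 0 passed edgeR or DESeq2 (at an unadjusted p under 0.05, Ddx58 higher and Ifngr1 lower), 5 were above mock and 4 below mock in all 3 knockout libraries, and the median log2 fold change was 0.29. Ddx58, which encodes the RNA sensor RIG-I, was at 4.04 CPM (mock), 15.1 CPM (c11), 13.6 CPM (c15) and 25.2 CPM (c22) (log2 fold change 2.16, SE 0.64, edgeR adjusted p = 0.845). Irf7, a transcription factor of the interferon response, was at 15.2 CPM (mock), 16.3 CPM (c11), 33.9 CPM (c15) and 43.0 CPM (c22), in the same order of libraries as Cxcl10. Ifngr1, a chain of the interferon gamma receptor, was at 131 CPM (mock), 31.8 CPM (c11), 72.5 CPM (c15) and 52.7 CPM (c22) (log2 fold change -1.32, SE 0.47). Ifnb1 was at 0 in every library. Irf7 was picked once its values were known. Beside the counts of the interferon list, 21.0% of all tested genes were above and 22.5% below mock in all 3 knockout libraries.

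Cxcl12, the stromal ligand of Cxcr4 that holds haematopoietic cells in bone marrow, varied widely among the knockout libraries. Cxcl12 (ENSMUSG00000061353, chromosome 6, 117168535 to 117181367, plus strand) was at 33.1 CPM (mock), 320 CPM (c11), 75.8 CPM (c15) and 25.8 CPM (c22). The c11 level was 9.66 times and the c15 level 2.29 times that of mock, while c22 was slightly below mock. The highest knockout level was 12.4 times the lowest, and the log2 range of 3.61 was wider than that of 98.3% of the 11315 tested genes whose mean level reached 5 CPM. The fit gave a log2 fold change of 2.07 (SE 1.40, edgeR adjusted p = 1.00), and it was 0.63 without c11.

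Cxcr4 was at 1.29 CPM (mock), 0.08 CPM (c11), 1.74 CPM (c15) and 0.99 CPM (c22), so the library with the most Cxcl12 had 1 count of its signalling receptor. Ackr3, a receptor that takes up Cxcl12, was at 9.77 CPM (mock), 2.25 CPM (c11), 6.06 CPM (c15) and 1.68 CPM (c22) (log2 fold change -1.54, SE 0.74, edgeR adjusted p = 1.00). Dpp4, a protease that trims and inactivates Cxcl12, was at 12.5 CPM (mock), 1.24 CPM (c11), 7.20 CPM (c15) and 1.91 CPM (c22) (log2 fold change -1.85, SE 0.87). Ackr3 and Dpp4 were below mock in all 3 knockout libraries. Host fibroblast markers summed to 110 CPM (mock), 25.6 CPM (c11), 93.9 CPM (c15) and 97.9 CPM (c22). In c22 Pdgfra alone gave 63.8 CPM of that sum, against 15.2 CPM in mock, and the other 5 markers were below mock there. The part of fibroblast content in the level of Cxcl12 was not tested.

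**Figure D3:**
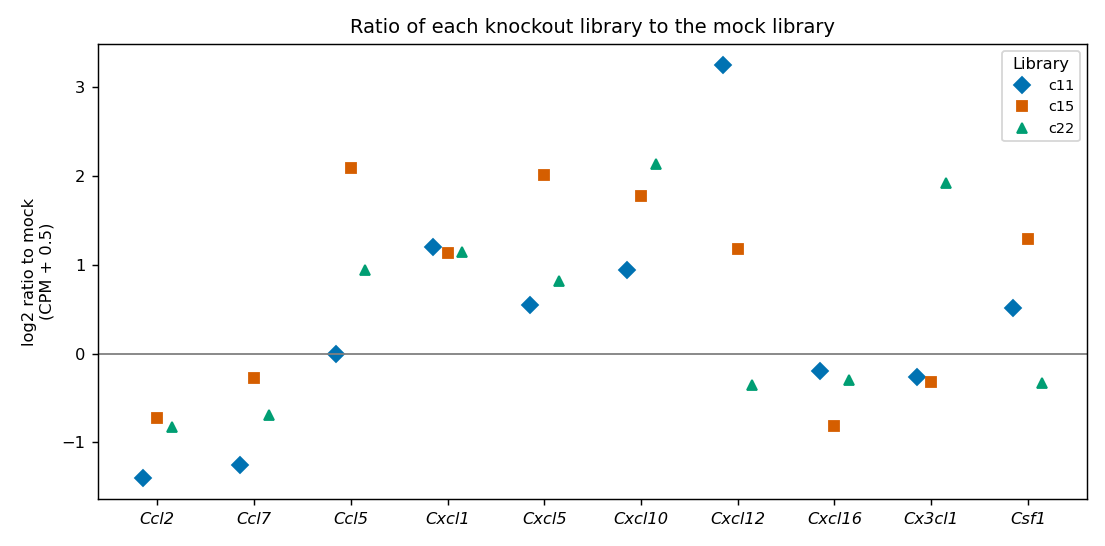
Log2 ratio of each knockout library to mock (CPM with 0.5 added) for the 10 genes. The 3 libraries nearly coincide for Cxcl1, near 1.2, on 29 or 30 counts each. They lie far apart for Cxcl12, from -0.36 in c22 to 3.25 in c11.

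Cxcl16 and Cx3cl1 are made as membrane proteins and released by the proteases Adam10 and Adam17. Cxcl16 (chromosome 11, 70453983 to 70459984, minus strand) had 13 (mock), 11 (c11), 5 (c15) and 10 (c22) counts, or 1.05, 0.85, 0.38 and 0.76 CPM. It was lower in each knockout library, but the counting intervals of all 3 overlapped that of mock, 0.56 to 1.80 CPM, so no difference was detectable at this depth (log2 fold change -0.65, SE 0.85). Exons of Zmynd15 on the opposite strand share 552 of its 3021 exonic bases. Zmynd15 was at 0.57 CPM (mock), 0.31 CPM (c11), 0.15 CPM (c15) and 0.38 CPM (c22). The part of reads from Zmynd15 in the level of Cxcl16 was not tested. The Cxcl16 receptor Cxcr6 had no count in mock and c11 and at most 0.15 CPM in the others.

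Cx3cl1 (chromosome 8, 94772009 to 94782427, plus strand), also called fractalkine, was at 5.41 CPM (mock), 4.42 CPM (c11), 4.24 CPM (c15) and 21.9 CPM (c22). Only c22 stood apart, at 4.04 times mock, while c11 and c15 had counting intervals that overlapped that of mock, 4.19 to 6.87 CPM. The fitted log2 fold change of 0.92 (SE 1.15, edgeR adjusted p = 1.00) turned to -0.33 without c22. The receptor Cx3cr1, found on monocytes and macrophages, was at 0.89 CPM (mock), 0.70 CPM (c11), 0.30 CPM (c15) and 0.38 CPM (c22). The protease gene Adam10 was at 133 CPM (mock), 158 CPM (c11), 144 CPM (c15) and 146 CPM (c22), and Adam17 at 74.5 CPM against 69.7, 68.8 and 44.6 CPM. Adam17 was lowest in the library with the most Cx3cl1. Both protease genes were singled out after their values were seen.

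Csf1 lay above mock in c15 and c11 but below it in c22. Csf1 (ENSMUSG00000014599, chromosome 3, 107741048 to 107760469, minus strand) was at 126 CPM (mock), 180 CPM (c11), 310 CPM (c15) and 100.1 CPM (c22). The c15 level was 2.45 times and the c11 level 1.43 times that of mock, while c22 lay below mock at a ratio of 0.793. The knockout mean was 197 ± 106 CPM (SD, n = 3), with a log2 fold change of 0.64 (SE 0.63, edgeR adjusted p = 1.00), and of 0.14 without c15.

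The receptor Csf1r, a macrophage marker, was at 47.6 CPM (mock), 24.6 CPM (c11), 35.4 CPM (c15) and 32.9 CPM (c22) (log2 fold change -0.61, SE 0.36), so it was below mock also in c11 and c15, where its ligand was above. Il34, the other ligand of Csf1r, was at 2.26 CPM (mock), 5.50 CPM (c11), 2.12 CPM (c15) and 6.65 CPM (c22). TPM is CPM divided by the merged length of all annotated exons of a gene and scaled to the same total in every library. In TPM, Csf1 exceeded Il34 by 20.7 times in mock and by 12.1, 54.1 and 5.58 times in c11, c15 and c22. Il34 was highest in c22, where Csf1 was lowest. Csf1r is itself among the macrophage markers summed above, and the part of macrophage content in its level was not tested.

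Levels of different genes were compared per length, in TPM. In mock the order was Ccl2 (150 TPM), Ccl7 (123 TPM), Csf1 (66.7 TPM) and Cxcl12 (11.3 TPM), with the other 6 genes at 3.84 TPM or less. In c11 it was Cxcl12 (110 TPM), Csf1 (96.0 TPM), Ccl2 (56.4 TPM) and Ccl7 (51.2 TPM). In c15 Csf1 led at 172 TPM, ahead of Ccl7 at 107 TPM and Ccl2 at 94.3 TPM. In c22 the order began as in mock, with Ccl2 at 81.3 TPM, Ccl7 at 73.2 TPM and Csf1 at 51.2 TPM. Ccl2, Ccl7, Csf1 and Cxcl12 together made up 97.9% of the summed TPM of the 10 genes in mock and 88.0% to 96.5% in the knockout libraries. The ratio of Csf1 to Ccl2 in TPM was 0.446 (mock), 1.70 (c11), 1.82 (c15) and 0.630 (c22). Ccl2 was above Ccl7 in mock, c11 and c22 and below it in c15, although its counts were higher in every library. At exon lengths of 1138 bases (Ccl2) and 801 bases (Ccl7), the counting intervals of c11, c15 and c22 include equal TPM. The order of these neighbours was therefore beyond counting error only in mock. Cxcl1, Cxcl10 and Cx3cl1 were next in c11 at 3.49, 3.30 and 3.17 TPM, on 30, 34 and 57 counts. Their order in c11 was within counting error, and it differed in the other libraries.

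**Figure D4:**
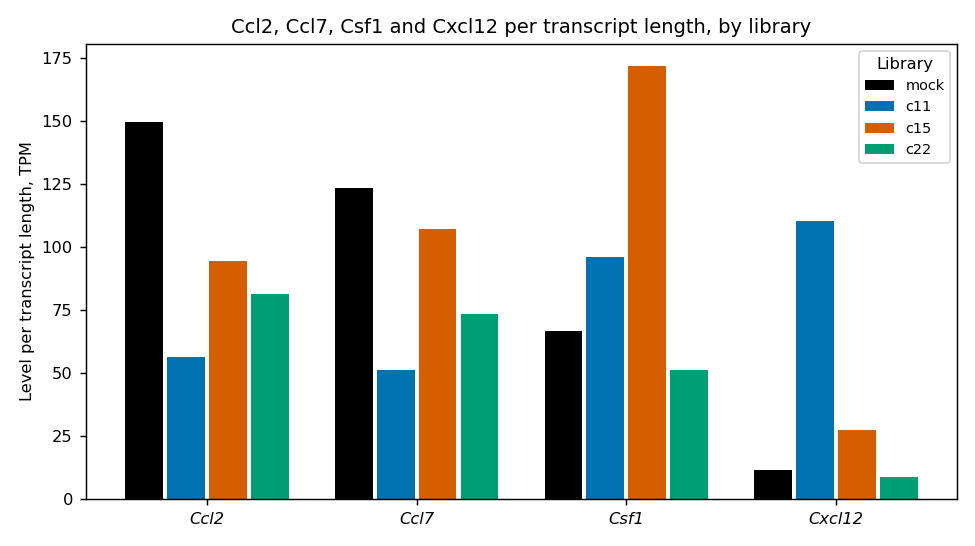
Level in TPM (linear axis) of Ccl2, Ccl7, Csf1 and Cxcl12, 1 bar for each library. The length used is the merged length of all annotated exons of a gene. Ccl2 is highest in mock at 150 TPM, Csf1 is highest in c15 at 172 TPM and Cxcl12 is highest in c11 at 110 TPM.

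Other genes of the chemokine system were read from lists by their counts and medians. Over all tested genes, 21.0% were above and 22.5% below mock in all 3 knockout libraries. For each of the following lists DESeq2 also called 0 genes. Of 11 tested chemokine receptors, 0 passed edgeR (Ccr2 and Ackr2, the latter named after its values were seen, were lower at an unadjusted p under 0.05), 6 were below mock in all 3 knockout libraries and 1, Cxcr2, was above, with a median log2 fold change of -0.48. The scavenger receptor Ackr4 had the highest value of those above 1 CPM, 0.34 (SE 0.64). Of 7 tested colony-stimulating factor and receptor genes, 0 passed, also unadjusted, and the median was -0.17, from Csf2rb at -1.19 (SE 0.68) to Il34 at 1.07 (SE 0.86), and -0.51 without c15. Of 6 genes of the shedding and trimming proteases and their regulators, 0 passed, also unadjusted, and the median was 0.05. Timp3, an inhibitor of Adam17, was at 14.1 CPM (mock), 49.0 CPM (c11), 22.3 CPM (c15) and 1.53 CPM (c22), in the same order of libraries as Cxcl12. Timp3 was lowest in c22, where Cx3cl1 was highest.

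Of 17 tested genes of the NF-kB pathway and its inducing cytokines, 0 passed (1, Tnfaip3, was lower at an unadjusted p under 0.05), 4 were above and 3 below mock in all 3 knockout libraries, and the median was 0.03. Relb, a subunit of the non-canonical NF-kB dimer, was at 7.83 CPM (mock), 24.0 CPM (c11), 15.2 CPM (c15) and 15.7 CPM (c22) (log2 fold change 1.22, SE 0.51, edgeR adjusted p = 1.00). Tnfaip3, which encodes the NF-kB inhibitor A20, was at 11.5 CPM (mock), 2.71 CPM (c11), 3.34 CPM (c15) and 2.83 CPM (c22) (log2 fold change -1.95, SE 0.48, edgeR adjusted p = 0.584). As for Cxcl1, the knockout libraries were close to each other for Tnfaip3, at 2.96 ± 0.33 CPM (SD, n = 3), and apart from mock, here in the lower direction. Here too counting error was wider than that spread, with an interval of 1.89 to 3.77 CPM for c11. Over all tested genes, 21.0% were above and 22.5% below mock in all 3 knockout libraries, near the shares of the NF-kB list.

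**Figure D5:**
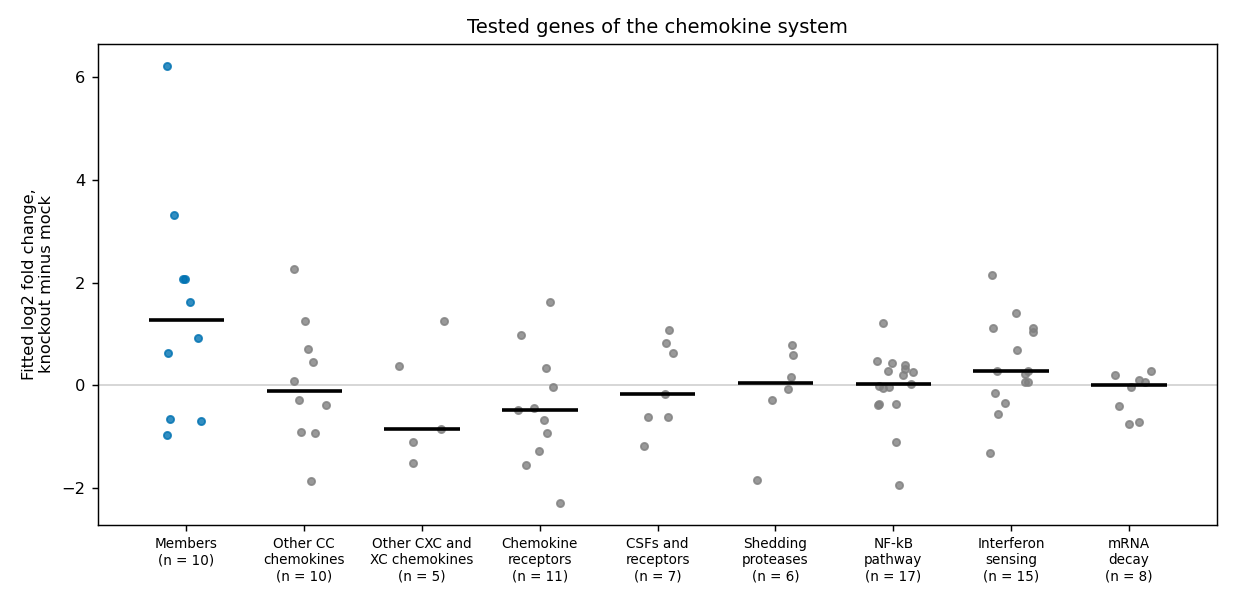
Log2 fold change from the fit, knockout minus mock, of every tested gene of the 10 members and of 8 lists of the chemokine system, with the median of each as a black line. The members spread from -0.96 for Ccl2 to 6.22 for Cxcl5, whose mock count was 0 so that its fitted value depends on the prior count.

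Genes with the profile most like that of a member were sought for the 5 members with a mean of at least 5 CPM. Likeness was the root mean square difference of centred log2 levels over the 4 libraries, among 10171 genes. Nearest to Ccl2 were Slc43a1 (0.04) and Klf2 (0.04), and nearest to Ccl7 were Trim25 (0.04) and Tiparp (0.05). Nearest to Csf1 were Ada (0.07) and Itsn2 (0.10), and nearest to Cx3cl1 were Lpin1 (0.08) and Prob1 (0.15). Cxcl12 had no close match, with Strbp (0.29) and Cyp1b1 (0.35) the nearest. With 4 libraries and this many genes, close profiles are common, and the values are a description.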

How the data were processed

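Poly(A) RNA of 1 mock and 3 HIF-1alpha knockout tumour libraries was measured. The table deposited by the authors holds raw read counts for each Ensembl gene. Tools named in the submitters' processing notes are featureCounts 1.6.3, HISAT2 2.1.0, SAMtools 1.9, Trimmomatic 0.38 and FastQC 0.11.7, with the build GRCm38. The library kit was directional, per the labels' protocols. Settings for strand and multi-mapping are not given in the sources used here, so reads of overlapping genes may be shared. The 3 knockout columns were used as libraries of 1 group.

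CPM was computed from the total of each library, and TPM from exon lengths of GENCODE vM21, which held 55227 of 55487 IDs and all 10 members at identical coordinates. filterByExpr kept 15706 genes, the 10 members among them. After TMM scaling, edgeR (4.0.16, R 4.3.3) was fitted to all 4 libraries, and its robust 2-sided quasi-likelihood test compared the groups, with p-values adjusted over all genes (Benjamini-Hochberg, threshold 0.05). Residual degrees of freedom were 2, and prior ones 3.77. The SE was taken from the F statistic. DESeq2 1.42.0 and limma-voom (limma 3.58.1) were alternatives.

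The members and lists were chosen with earlier results of these data known. Named by rule were all members, their receptors and Il34, the 5 most abundant other ligands, the highest and lowest gene of each other list above a mean of 1 CPM, and the 2 nearest profiles of each member above 5 CPM. Protein sequences were not used here, and some genes that the rule names are not reported here.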

Additional observations from a re-analysis of the deposited data

How the results depend on the processing

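No paired analysis was possible because mock has 1 library, so the groups share fewer than 2 replicate numbers, and the columns carry none. No member was called under any of the settings tried, which were upper quartile scaling, DESeq2, limma-voom, no filter, a mean of at least 1 CPM, leaving out each knockout library, and edgeR's legacy quasi-likelihood, chosen after seeing the data. Of 95 alternative fold changes of members, 94 kept their direction, and Cx3cl1 turned to -0.33 without c22, the library that held its high level, with 1.30 as its highest value with a library left out. The lowest adjusted p of a member was 0.546, for Ccl2 without c15.

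Over all genes DESeq2 called 48 higher and 66 lower, against 0 and 1 in the reported fit. The count of lower genes was 0 with limma-voom, 4 with no filter and 0 with the legacy fit, and ranged from 0 to 0 with each library left out; the cause was not tested. With a library left out, the median log2 fold change ranged from 0.72 to 1.29 for the members, from -1.42 to -0.52 for the other CXC and XC chemokines and from -0.51 to 0.031 for the colony-stimulating factors and receptors. With limma-voom the log2 fold change of Cxcl12 was 1.37, against 2.07. Without c15, Ccl5 and Cxcl5 did not pass the filter. Scaling by TMM moved no level of a member beyond its spread and changed no order against mock. Depth limits Ccl5, Cxcl5 and Cxcl16, which had at most 26 counts in a library. It also limits the folds of Cxcl1 and Cxcl10, which had 9 and 14 counts in mock.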

Other observations

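Csf2 was at 0 in every library and Csf3 had at most 0.08 CPM. Flt3l, the growth factor of dendritic cells, was at 2.26 CPM (mock), 3.10 CPM (c11), 4.85 CPM (c15) and 3.98 CPM (c22) (log2 fold change 0.82, SE 0.65), so it was above mock in all 3 knockout libraries without passing edgeR. Kitl, the stem cell factor gene, was at 15.8 CPM (mock), 10.1 CPM (c11), 20.8 CPM (c15) and 11.2 CPM (c22).

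Some proteins that bind AU-rich elements shorten the life of many chemokine transcripts. The list of regulators held Zfp36, Zfp36l1, Zfp36l2, Zc3h12a, Elavl1, Khsrp, Hnrnpd and Dusp1, which do not all act in this way. Of these 8 genes, all tested, 0 passed edgeR or DESeq2, also 0 at an unadjusted p under 0.05, and the median log2 fold change was 0.02. Zfp36l1, a decay factor, was at 106 CPM (mock), 87.3 CPM (c11), 48.2 CPM (c15) and 53.6 CPM (c22) (log2 fold change -0.74, SE 0.41). Zc3h12a, an endonuclease that cuts cytokine transcripts, was at 3.39 CPM (mock), 3.10 CPM (c11), 3.94 CPM (c15) and 5.35 CPM (c22) (log2 fold change 0.29, SE 0.63). Cgas, a DNA sensor gene singled out after its values were seen, was at 1.78 CPM (mock), 0.54 CPM (c11), 10.2 CPM (c15) and 0.69 CPM (c22), high in the knockout library with the most Ccl5.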
